A study of Mus musculus with 8 samples.

Results

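Stretches of the mouse genome that are rich in CpG dinucleotides are as a rule unmethylated. The data here are on the exceptions, 1-kb tiles with many CpGs that carried methylation at nearly every one of them in both B cells and T cells. The genome was cut into 1-kb tiles, and a tile of chromosomes 1 to 19 was called CpG-dense when at least 40 of its CpGs were listed in all 4 deposited files and each file held at least 20 reads on them. There were 18025 such tiles. The tiles described were chosen by their methylation level, which had to be 80% or more in every file, and 1221 tiles (6.77% of the CpG-dense tiles) met this. A further 15451 (85.7%) were at 20% or less in every file and are called unmethylated, and 1353 (7.51%) were neither. Because the level chose the tiles, their levels are given as a description, without a test.

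Spleens of C57BL/6J mice of 6 to 8 weeks and of either sex were the source of the cells, and the labels name no transgene or treatment for any group. They were naive CD4+ T cells, sorted as CD62L high, CD44 low and CD25 negative, and resting CD43- B cells. Methylation was read by whole genome oxidative bisulfite sequencing, in which an oxidation step before bisulfite is meant to make 5-hydroxymethylcytosine read as T, so that a remaining C stands for 5-methylcytosine. The 8 samples form 4 groups of 2 (B and T cells of females, B and T cells of males), but both samples of a group share 1 file with 1 value per CpG. Whether that file holds 1 of the samples or both joined is not stated. Each group was therefore treated as 1 library made from cells pooled from several mice, with no SD of its own. The median depth was 14 to 17 reads per autosomal CpG, and the level over all autosomal CpGs was 78.6% to 81.1%. As a check of the cell type labels, the promoters of 8 of 8 B cell genes were less methylated in both B cell libraries than in both T cell libraries, and those of 13 of 14 T cell genes less methylated in the T cell libraries.

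CpG methylation is copied onto the new strand at each cell division. In mammals most CpGs are methylated, methylated cytosine mutates readily to thymine, and CpG-dense stretches are those that were mostly unmethylated in the germ line, usually at the starts of genes. A promoter of this kind that is methylated in somatic cells is stably silent, and genes of meiosis and of germ cells are the best known case. Methylation within the body of a gene goes together with transcription rather than with silence, and methylation of transposon copies keeps these silent.

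Sequences of 300 bases from the centre of 4 tiles show what CpG-dense sequence of both kinds looks like. The first pair are the starts of Ddx4, a germ cell RNA helicase, and Adad1, an adenosine deaminase domain protein of the testis, both fully methylated. The third is from Hspa8, a heat shock cognate chaperone made in all cells, taken from lists of housekeeping and developmental genes as the unmethylated gene-start tile with the CpG number nearest to that of Ddx4. The first start of Hspa8 lies just before that tile, and the sequence shown holds the start of a shorter transcript of the gene. The last is an exon of Shroom3, an actin-binding protein, the exon tile with the most CpGs. All are printed on the plus strand of GRCm38, with CpGs in capitals.
Ddx4, chr13:112652351-112652650, fully methylated: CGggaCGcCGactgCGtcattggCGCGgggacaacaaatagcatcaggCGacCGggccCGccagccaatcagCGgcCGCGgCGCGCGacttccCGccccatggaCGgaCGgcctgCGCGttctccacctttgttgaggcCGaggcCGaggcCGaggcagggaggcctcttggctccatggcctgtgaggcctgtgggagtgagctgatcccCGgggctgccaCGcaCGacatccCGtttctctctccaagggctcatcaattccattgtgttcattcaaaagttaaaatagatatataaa
Adad1, chr3:37063351-37063650, fully methylated: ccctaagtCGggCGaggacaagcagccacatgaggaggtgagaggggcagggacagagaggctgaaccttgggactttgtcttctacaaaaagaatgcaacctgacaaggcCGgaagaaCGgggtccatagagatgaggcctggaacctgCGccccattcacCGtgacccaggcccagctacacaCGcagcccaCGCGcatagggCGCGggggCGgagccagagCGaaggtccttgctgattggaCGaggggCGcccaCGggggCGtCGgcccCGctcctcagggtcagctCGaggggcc
Hspa8, chr9:40801351-40801650, unmethylated: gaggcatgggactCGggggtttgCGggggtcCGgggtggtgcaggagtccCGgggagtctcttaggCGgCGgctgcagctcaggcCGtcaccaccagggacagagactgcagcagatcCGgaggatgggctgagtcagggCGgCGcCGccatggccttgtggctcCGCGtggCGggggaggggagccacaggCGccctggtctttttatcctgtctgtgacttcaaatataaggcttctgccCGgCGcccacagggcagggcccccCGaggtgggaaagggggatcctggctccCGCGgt
Shroom3, chr5:92942351-92942650, fully methylated: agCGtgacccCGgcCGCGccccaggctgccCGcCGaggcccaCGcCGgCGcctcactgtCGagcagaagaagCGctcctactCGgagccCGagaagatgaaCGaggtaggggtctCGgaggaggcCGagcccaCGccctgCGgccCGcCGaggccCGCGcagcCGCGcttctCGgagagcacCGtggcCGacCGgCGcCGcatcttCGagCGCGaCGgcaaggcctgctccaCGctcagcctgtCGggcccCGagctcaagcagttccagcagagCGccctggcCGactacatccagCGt

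These stretches hold 27 (Ddx4), 20 (Adad1), 20 (Hspa8) and 40 (Shroom3) CpGs. Over its whole tile of 69 CpGs, Ddx4 was at 96.7% in B cells of females (95% Wilson interval 95.4 to 97.7, 945 reads) and 96.4% in those of males (94.8 to 97.5, 722 reads). In T cells it was at 95.5% in females (93.9 to 96.7, 803 reads) and 96.7% in males (95.4 to 97.6, 966 reads). Hspa8, with 70 CpGs in its tile, was at 0.108% in B cells of females (0.0191 to 0.609, 926 reads) and 1.37% in those of males (0.766 to 2.43, 804 reads). In T cells it was at 0.218% in females (0.0741 to 0.639, 1377 reads) and 0% in males, where 787 reads give an upper bound of 0.486%. The rules that chose the tiles fix the gap between them. Reads are summed over the CpGs of a tile, so a read that covers several CpGs is counted once for each. The intervals cover the counting error of these sums only and may be too narrow. Reads carry no molecular identifiers, and CpGs on 1 read are not independent.

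Methylation of the 1221 tiles was near complete and alike in the 4 libraries. The rule on level sets this in part, since it caps any gap between libraries at 20 points. By library the median over tiles was 95.5% in both B cell libraries and 95.1% (female) and 95% (male) in the T cell libraries, and the middle 50% of tiles lay between 93.0% and 96.8% in all of them. The gap between the lowest and the highest library had a median of 2.10 percentage points and reached 13.8 points. Of the 57575 CpGs in these tiles, 86.2% had a mean level of 90% or more over the libraries, and 0.429% (247 CpGs) were under 50%. Such a CpG was missing from 1080 of the 1221 tiles. CpGs at 20% or less in every library numbered 16, in 9 tiles. Median reads per tile, summed over its CpGs, were 600.0 to 870.0 by library, with 251 the fewest.

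At the limit that chose them, the 3 tiles just inside lay in an exon of Map7d1 (lowest library 80.1%, highest 89.1%), 676 bases from Skida1 (80.3% and 87.7%) and in an exon of Kazn (80.3% and 91.3%). The 3 tiles just outside were the start of Hoxa5 (79.6% and 95.8%) and exons of Rasip1 (79.5% and 84.3%) and Evpl (79.3% and 90.4%). The tiles on both sides of the limit were highly methylated.

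Fully methylated tiles were mostly found away from gene starts, where CpG-dense tiles otherwise sit. A tile was assigned by order to a gene start (a start of a protein-coding gene in the tile or within 500 bases), a gene end (likewise), an exon (at least 100 exonic bases), an intron or intergenic sequence. Of the fully methylated tiles, 56 were at a gene start (4.59%, Wilson interval 3.55 to 5.91), 66 at a gene end (5.41%, 4.27 to 6.82), 592 in an exon (48.5%, 45.7 to 51.3), 116 in an intron (9.50%, 7.98 to 11.3) and 391 between genes (32.0%, 29.5 to 34.7). The gene start counted was the first start of a protein-coding gene: with the starts of all genes the share at gene starts was 10.6%, and with those of all transcripts of protein-coding genes it was 14.7%, with 39.1% in exons. Of the unmethylated tiles, 11123 were at a gene start (72.0%, 71.3 to 72.7), 2294 in an exon (14.8%), 220 at a gene end (1.42%), 742 in an intron (4.80%) and 1072 between genes (6.94%). Unmethylated tiles held more CpGs (median 61, against 44 in the fully methylated ones), so they were also weighted to have the same CpG numbers. With these weights 64.2% were at a gene start, 14.4% in an exon, 2.06% at a gene end, 7.48% in an intron and 11.9% between genes. No test was run on these shares, and neighbouring tiles are not independent.

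Copies of a sequence elsewhere in the genome split the fully methylated tiles into 2 kinds. A tile was said to have a copy when at least 500 bases of it matched another place on chromosomes 1 to 19 or X at 90% identity or more. Copies were found for 430 fully methylated tiles (35.2%) and for 194 unmethylated ones (1.26%, and 1.32% with the weights). Among the fully methylated tiles with a copy, 344 lay between genes (80%, 76.0 to 83.5) and 69 in introns (16.0%). Among the 791 without a copy, 581 lay in exons (73.5%, 70.3 to 76.4), 64 at gene ends (8.09%), 52 at gene starts (6.57%), 47 in introns and 47 between genes (5.94% each).

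**Figure D1:**
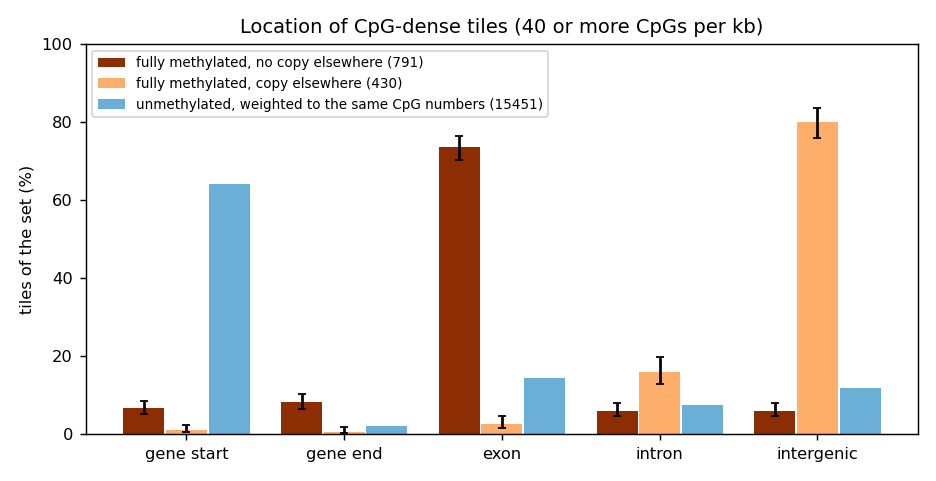
Share of CpG-dense tiles (vertical axis, %) in each of 5 locations (horizontal axis), for fully methylated tiles without a copy elsewhere (dark brown), fully methylated tiles with a copy (light orange) and unmethylated tiles weighted to the same CpG numbers (blue). Error bars are 95% Wilson intervals, with none for the weighted set. Exons held 73.5% of the tiles without a copy, intergenic sequence 80% of those with one, and gene starts 64.2% of the unmethylated.

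The fewer CpGs a dense tile had, the more often it was fully methylated, in each of the 5 locations from the lowest band of CpG number to the highest. Of tiles with 40 to 44 CpGs, 619 of 3150 were fully methylated (19.7%, 18.3 to 21.1), and of tiles with 80 or more, 18 of 3675 (0.490%, 0.310 to 0.773). The shares differed by location within each band. At 40 to 44 CpGs, 26 of 1461 gene-start tiles (1.78%, 1.22 to 2.59), 286 of 731 exon tiles (39.1%, 35.7 to 42.7) and 218 of 591 intergenic tiles (36.9%, 33.1 to 40.8) were fully methylated. At 60 to 79 CpGs the counts were 9 of 3543 gene-start tiles (0.254%), 44 of 771 exon tiles (5.71%) and 9 of 250 intergenic tiles (interval 1.91% to 6.70%). The gene-start intervals lay below the exon intervals in all 5 bands.

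**Figure D2:**
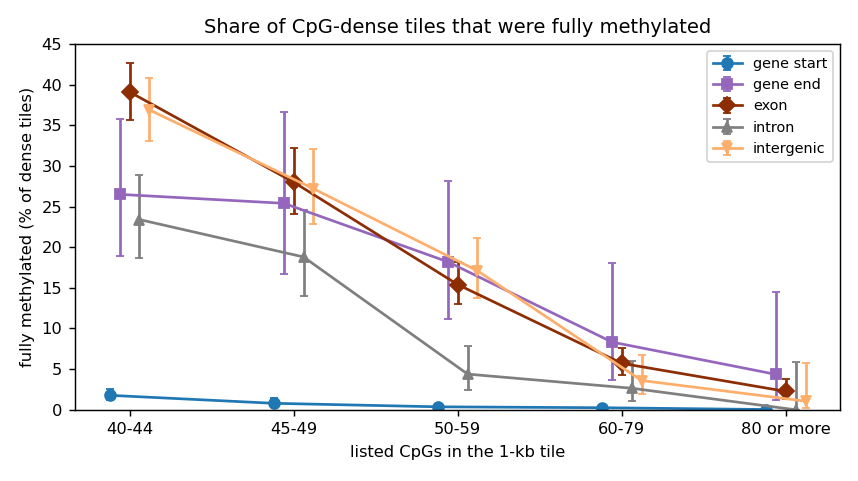
Share of CpG-dense tiles that were fully methylated (vertical axis, %) by the number of listed CpGs in the tile (horizontal axis, 5 bands), 1 line per location, with 95% Wilson intervals. Exon and intergenic tiles start at 39.1% and 36.9% and fall with CpG number, while gene starts do not exceed 1.78%.

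Distance from the nearest transcript start gave the same picture without the location classes. Among tiles with no copy, 123 of 11528 with their centre within 500 bases of a start of a protein-coding transcript were fully methylated (1.07%, 0.895 to 1.27), as were 73 of 927 at 1000 to 2000 bases (7.87%, 6.31 to 9.79) and 193 of 801 at 2000 to 5000 bases (24.1%, 21.3 to 27.2). Beyond 20000 bases the count was 131 of 684 (95% interval 16.4% to 22.3%). More of the distant dense tiles were still unmethylated than fully methylated (63.3% beyond 20000 bases).

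The ground around the tiles differed between the 2 kinds. Tiles 2 kb away from a fully methylated tile, on either side, had a median level of 92.4% (middle 50% from 86.1% to 95.2%, 1915 tiles), while those 2 kb from an unmethylated tile had 82.2% (43.4% to 92.3%, 27128 tiles). At 1 kb the medians were 93.8% and 20.8%, and at 10 kb 90.6% and 90.7%. Flanking tiles include CpG-dense ones, some of them sorted by the same rule on level. Among flanking tiles with under 40 CpGs the medians were 93.7% and 39.8% at 1 kb and 92.4% and 84.2% at 2 kb. At 2 kb from fully methylated tiles, 77% of all flanking tiles were at 80% or more in every library and 2.51% at 20% or less in every library. The flanks of unmethylated tiles reached the same median with distance. Unmethylated tiles were not weighted here to the CpG numbers of the fully methylated ones. The nearest unmethylated dense tile was a median of 20000 bases away from fully methylated tiles without a copy and 234000 bases away from those with one, and 17 abutted one. Most stood alone: 1063 had no fully methylated dense tile beside them, and 7 runs held 3 or more.

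**Figure D3:**
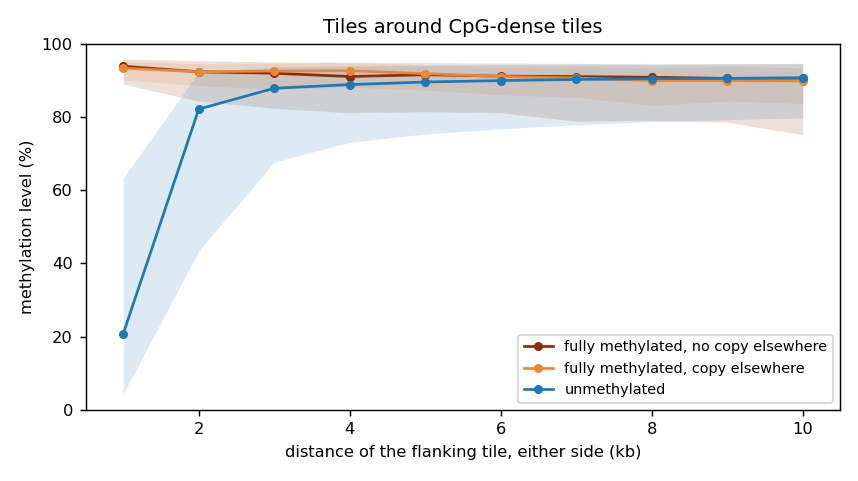
Median methylation level (vertical axis, %, mean of 4 libraries per tile) of tiles 1 to 10 kb from a CpG-dense tile (horizontal axis, both sides together), with the middle 50% of tiles shaded. Levels around fully methylated tiles stay between 89.9% and 93.9%, with or without a copy elsewhere, while those around unmethylated tiles climb from 20.8% at 1 kb to 90.7% at 10 kb. Flanking tiles that are CpG-dense are included. With under 40 CpGs only, the median 1 kb from unmethylated tiles was 39.8%.

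Genes on a list of germ line genes were among the gene starts that were fully methylated despite many CpGs. Of its 40 genes, 13 had their start in or within 500 bases of a fully methylated dense tile: Ddx4, D1Pas1, Mael, Sycp1, Stk31, Rpl10l, Sohlh2, Hormad1, Dmrtb1, Sycp3, Brdt, Syce1 and Majin. None of 20 housekeeping genes and none of 38 developmental regulators did, and 1 of 27 genes at imprinted regions did (Mcts2). At any CpG number, the start tile of 31 of the 40 germ line genes was at 80% or more in every library, that of 3 was at 20% or less, and 6 were neither. Counted the same way, 2 of the 20 housekeeping starts (Ldha and Ywhaz), 2 of the 27 imprinted ones (Mcts2 and Mest) and none of the 38 developmental ones were fully methylated. Only the first start of each gene was counted, and whether Ldha, Ywhaz or the others have another, unmethylated start was not checked here. For comparison, 16.6% of the start tiles of 18321 protein-coding genes were fully methylated and 62.2% unmethylated. The germ line list was put together with earlier results of these data known, so its count is a description.

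By CpG number the 8 leading gene starts, with predicted genes passed over, began with Hsf5, a heat shock factor of spermatocytes, whose tile chr11:87617001-87618000 had 76 CpGs at 98.2%, 97.0%, 96.7% and 97.0% (in B then T cells of females, then B and T cells of males, the order used from here on). D1Pas1, a testis DEAD-box helicase (chr1:186967001-186968000, 69 CpGs), was at 93.4%, 92.8%, 88.5% and 91.8%. Ddx4 followed with the levels given above. The lowest interval bound in these 3 tiles was 86.2%, in male B cells for D1Pas1, which is a description since the limit chose the tiles.

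Boll, an RNA-binding protein needed for spermatids (chr1:55362001-55363000, 68 CpGs), was lower, at 84.1%, 81.7%, 83.2% and 80.8%, and the intervals of both T cell libraries reached below the limit (79.2% and 77.7%). Mael, of the piRNA pathway that silences transposons (chr1:166238001-166239000, 62 CpGs), was at 92.3%, 91.4%, 92.7% and 89.9%. Adad1 (chr3:37063001-37064000, 62 CpGs) was at 89.9%, 86.1%, 85.1% and 88.9%. These 3 starts were methylated less completely than Hsf5 and Ddx4 in all 4 libraries.

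Sycp1, the transverse filament of the synaptonemal complex that joins paired chromosomes in meiosis (chr3:102935001-102936000, 60 CpGs), stood at 95.9%, 95.5%, 96.0% and 96.1%. Kcnv2, a potassium channel subunit of photoreceptors (chr19:27323001-27324000, 60 CpGs), was at 96.7%, 95.8%, 96.5% and 95.5%. The Kcnv2 tile was coding sequence over all 1000 of its bases, with the nearest transcript start 913 bases from its centre, so it covers the first coding exon rather than the start itself.

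The other germ line list genes had 41 to 53 CpGs in their tiles. Stk31, a kinase-like protein of germ cells, had the highest CpG number of these and was at 96.7%, 96.8%, 95.8% and 96.0%. Brdt, the testis bromodomain protein, was at 97.2%, 97.1%, 97.2% and 95.8%. Syce1 and Majin, which act in synapsis and in tethering telomeres, were the lowest, with 86.8% in male B cells and 86.8% in female T cells. The remaining members of the list lay between 91.0% (Dmrtb1 in male T cells) and 98.2% (Rpl10l in male B cells).

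The other fully methylated gene starts, outside the germ line list, were those of Sycp2, Tex12, Msh4, Syce3, Ankrd31, Rnf212b, Pdha2, Btbd18, Catsperg1, Hist1h2ba, Hist1h2aa, Sfi1, Sec1, Ccdc185, Pramel1, Trim52, Ccdc194, Pabpc6, Mcts2 (2 tiles), Arhgef18, Ccer1, Rsph6a, Slc6a16, Fam178b, Npr2, Jade1, Duxf3, Hoxa5, Cdc34b and Sap25, and 8 tiles at predicted or RIKEN genes. In 41 of the 56 tiles the start lay inside the tile. The Hoxa5 tile listed here, chr6:52205001-52206000, abuts the Hoxa5 start tile given above as just outside the limit. Of the 56, 18 had another transcript start of the same gene well outside the tile, and for 3 of these such a start lay in an unmethylated tile. The Sfi1 tile stands apart in depth: it had 39.1 times the usual depth of the libraries, and its levels were 82.7% to 83.3%. How many genomic places its reads came from was not tested.

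**Figure D4:**
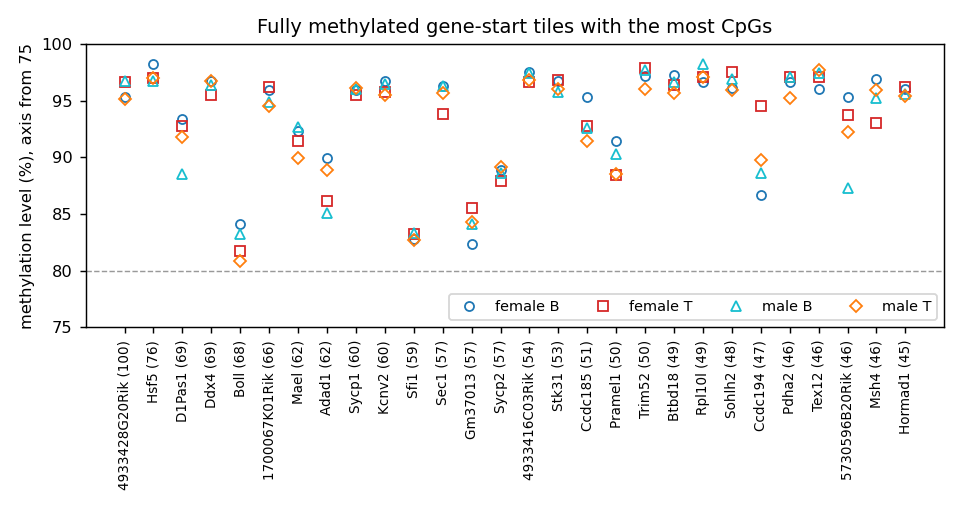
Methylation level (vertical axis, %, from 75) in each of the 4 libraries (symbols) of the 28 fully methylated gene-start tiles with the most CpGs, each named with its number of CpGs in brackets (horizontal axis). The dashed line is the 80% limit. Hsf5, Ddx4 and Sycp1 lie above 95% in all 4 libraries, while Boll and Sfi1 lie between 80.8% and 84.1%.

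Promoter letters were compared in windows of 300 bases (250 before and 50 after the start, RefSeq, GRCm38.p6). Windows with their start in a fully methylated gene-start tile numbered 42, from 38 genes. The E-box CACGTG, which reads the same on both strands, was in 16 of them (38.1%), in 960 of the 8796 windows that start in an unmethylated gene-start tile (10.9%) and in 7.14% of all 31396 windows. The E2F-type element TCCCGC, on either strand, was in 12 (28.6%), 3835 (43.6%) and 20.2%. Both were present in 6 (14.3%) against 4.76% and 2.01%, in Ddx4, Mael, Hormad1, Sycp3 and Tex12. The NRF1-type element GCGCATGC was in 6 (14.3%), of Boll, Hormad1, Stk31 and Syce1, against 5.96% and 2.70%. Several windows of 1 gene were each counted, so these shares are of windows and not of genes. The median window had 18.5 CpGs in the fully methylated set and 25 in the unmethylated set. Matches describe letters and do not show binding.

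Exons held the largest group, 592 tiles, and together with the gene ends these came from 541 protein-coding genes. Coding sequence filled a median of 735 bases of the exon tiles, against 127 bases in unmethylated exon tiles (102 with the CpG weights). The longest exon in the tile had a median of 1960.0 bases, against 548 (451 with the weights), and it held a transcript end in 63.9% of tiles, against 30.6%. Their centres were a median of 4039.5 bases from the nearest transcript start, against 320.0 bases in the unmethylated ones. They thus lay mostly in long exons with much coding sequence, often ones that held a transcript end, while dense unmethylated exon tiles were mostly close to a start. Exons and ends of every annotated transcript of the gene were counted, so such an exon need not be the last of the gene. GC content was 59% in the median exon tile, and 57.5% in unmethylated exon tiles of the same CpG numbers.

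Among exons the tile with the most CpGs was in Shroom3 (chr5:92942001-92943000), with 122 CpGs at 97.0%, 97.3%, 96.5% and 96.0%, all of it coding. Zfp865, a zinc finger protein (chr7:5031001-5032000, 92 CpGs), was at 97.2%, 97.6%, 97.3% and 97.2%. Both tiles were highly methylated in every library, with more CpGs than Ddx4.

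Chst13, a sulfotransferase of chondroitin (chr6:90309001-90310000, 93 CpGs), was lower, at 91.5%, 90.7%, 86.7% and 85.6%, with both female libraries above both male ones. That difference of 4.88 points had an unadjusted p of 0.00580 in the edgeR fit and was not called after adjustment. Zbtb7a, a transcriptional repressor (chr10:81144001-81145000, 85 CpGs), was at 96.8%, 93.6%, 94.9% and 93.5%. Agap2, a GTPase-activating protein for Arf (chr10:127091001-127092000, 84 CpGs), was at 94.3%, 95.3%, 95.8% and 94.1%.

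Several genes held many of these tiles. Plec, which encodes the cytoskeletal linker plectin, had 11 of its 13 dense tiles fully methylated and 2 unmethylated. Of these, 10 abutted in 1 run at chr15:76172001-76182000, the longest run found, with 43 to 75 CpGs per tile. The 11 tiles lay between 94.8% and 98.4%. Fat1, a giant cadherin, had 6 of 8 (93.1% to 98.4%), Zfhx3, a large homeobox factor, 5 of 9 (85.5% to 98.0%), and Celsr2, a seven-pass cadherin, and Jak3, the kinase of cytokine receptors of lymphocytes, 4 of 4 each. In genes such as Plec, Fat1, Zfhx3, Spen and Kdm6b, unmethylated and fully methylated dense tiles stood in the same gene.

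The starts of the genes with a fully methylated exon or end were mostly unmethylated. Of 539 such genes whose start tile was read, 405 had an unmethylated start (75.1%), 38 a fully methylated one (7.05%) and 96 neither. Over all protein-coding genes 62.2% of start tiles were unmethylated and 16.6% fully methylated.

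Gene families were counted by name over dense tiles inside protein-coding genes, away from their starts. In all, 773 of 4623 such tiles were fully methylated (16.7%). Zinc finger genes had 61 of 142 (43.0%), in 48 genes that included Zfpm1, Zfp865 and Zbtb7a. Cadherins with Celsr, Fat and Dchs genes had 15 of 45 (33.3%), Shank, Ank and SH3 scaffold genes 12 of 34 (35.3%), and adhesion G protein-coupled receptors 5 of 17 (29.4%). Potassium channel genes had 13 of 59 (22.0%). Fox and Sox genes had 1 of 52 (1.92%, Foxo3), clustered protocadherins 1 of 33 (3.03%, Pcdhgb7, with 31 neither), calcium and sodium channel genes 2 of 27 (7.41%), and Adam and Adamts genes 0 of 12. Hox genes were at 5 of 35 (14.3%), with Hoxa3, Hoxa5 and Hoxa6 among them. The families were chosen with earlier results known, and no test was run on them.

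At gene ends, Zfpm1, the GATA cofactor FOG1, led with 120 CpGs in chr8:122336001-122337000, all coding, at 96.8%, 96.7%, 97.9% and 98.0%. Hcn2, a pacemaker channel (chr10:79735001-79736000, 92 CpGs), was at 95.4%, 95.9%, 95.1% and 96.5%. Grin3b, an NMDA receptor subunit whose end overlaps Tmem259 (chr10:79977001-79978000, 72 CpGs), was at 96.5%, 97.9%, 98.1% and 97.6%. All 3 were above 95% in every library.

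Irgc1, a GTPase of the immunity-related family (chr7:24432001-24433000, 70 CpGs), was at 87.9%, 80.8%, 88.3% and 88.5%, so that the female T cell library alone was low. Tenm3, a teneurin of neuronal contacts (chr8:48228001-48229000, 64 CpGs), was at 97.2%, 97.0%, 97.5% and 96.5%. Upf1, the helicase of nonsense-mediated decay (chr8:70331001-70332000, 60 CpGs, overlapping Cers1), was at 96.8%, 94.4%, 95.6% and 96.4%.

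In introns, where 69 of 116 tiles had a copy elsewhere, the one with the most CpGs was in Rnf220, a ubiquitin ligase (chr4:117304001-117305000, 66 CpGs, no copy), at 94.0%, 96.2%, 95.5% and 97.2%. The Pcdh9 tile (chr14:93215001-93216000, 62 CpGs) was repeat sequence throughout: all of its bases were masked as repeats in the reference, 93.1% of its 12-base words occurred more than once within it, and it was at 92.1%, 93.1%, 92.5% and 92.2%. Pcdhgb7 (chr18:37763001-37764000, 61 CpGs) was at 85.8%, 85.7%, 84.2% and 86.7%. Rgs9, a regulator of G protein signalling (chr11:109288001-109289000, 60 CpGs), was at 95.4%, 96.5%, 93.4% and 90%. Both female libraries were above both male ones, and the difference of 4.21 points had an unadjusted p of 0.000479 in the edgeR fit and was not called after adjustment.

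Between genes, 344 of 391 tiles had a copy, and the median distance to a protein-coding gene was 79279 bases. A gene that is not protein-coding overlapped 61 of them. The 4 with the most CpGs, none with a copy, were nearest to Rnf223 (chr4:156137001-156138000, 103 CpGs, 97.5% to 98.1%), Glrx5 (chr12:105023001-105024000, 73 CpGs, 90.9% to 92.8%), Tlk2 (chr11:105165001-105166000, 69 CpGs, 87.1% to 89.3%) and Fzd6 (chr15:38990001-38991000, 64 CpGs, 86.3% to 92.4%). The first 2 were tandem sequence, with 92.6% and 79.4% of their 12-base words repeated within the tile, and the last 2 had no repeated word.

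Tiles with a copy elsewhere were mostly masked repeat sequence, which could not be assigned to repeat families because no repeat annotation was used here. Masked bases made up a median of 97.1% of a tile, against 4.5% in fully methylated tiles without a copy and 7.10% in unmethylated ones. Copies were on all 20 chromosomes searched for 303 of the 430. Tandem repetition was common as well: in 183 of the 430 at least 50% of the 12-base words occurred more than once within the tile, against 19 of the 791 without a copy. A stretch of at least 200 bases at 90% identity matched 1 of 203 IAP loci listed by the study in 70 of the 430 (16.3%) and in 4 of the 791 others. IAPs are endogenous retroviral elements that are normally methylated, and the listed ones were picked or tested by the study for variable methylation between mice, so these matches speak of shared sequence only. Depth was lower in tiles with a copy, at a median of 0.852 of the usual depth against 1.10 in the others, and reads of near-identical copies may be placed wrongly or left out, which was not tested. The median level was 94.6% to 94.7% by library with a copy and 95.2% to 96.0% without.

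B cells and T cells were then compared in each tile, with a quasi-likelihood test of edgeR on methylated and unmethylated reads, fitted and adjusted over all 1530528 tiles of the series. Over the series 9.35% of tiles were called at an adjusted p under 0.05. Of the fully methylated dense tiles, 63 of 1221 were called (5.16%). Since the rule keeps every library at 80% or more, it caps any difference at 20 points, so the shares are not of like sets. The unmethylated dense tiles, whose rule sets the same cap, were called in 2928 of 15451 cases (19%). B cells were higher in 44 (3.60%, against 7.16% of all tiles) and T cells in 19 (1.56%, against 2.19%). With a difference of at least 5 points besides, 36 were called (2.95%, against 8.80%). Among the unmethylated tiles 248 passed the same minimum (1.61%), so the order of the dense sets turned with it. By location, 50 of 592 exon tiles (8.45%), 6 of 66 gene ends (9.09%), 2 of 56 gene starts (3.57%), 2 of 116 intron tiles (1.72%) and 3 of 391 intergenic tiles (0.767%) were called. With the minimum of 5 points these were 27 exon tiles (4.56%) and 4 gene ends (6.06%). The calls included 2 of the 430 tiles with a copy. The difference over the 1221 tiles had a median of 0.305 points (5th to 95th percentile -2.21 to 3.08), B minus T.

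The 4 largest called differences in each direction follow. An exon tile of Abhd8, a hydrolase-like protein (chr8:71461001-71462000), was at 97.0% (female) and 96.6% (male) in B cells and at 86.7% and 83.2% in T cells, a difference of 11.8 points (edgeR adjusted p = 1.64e-13). Dst, the cytoskeletal linker dystonin (chr1:34179001-34180000), was at 93.1% and 92.6% in B cells and 82.4% and 82.7% in T cells (10.2 points, adjusted p = 8.36e-07). Both B cell libraries lay above both T cell libraries in these tiles.

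Apc2, a relative of the Wnt pathway protein APC (chr10:80311001-80312000), was at 92.5% and 87.8% in B cells and 81.2% and 80.3% in T cells (9.40 points, edgeR adjusted p = 0.000113). That call was lost without the female B cell library (adjusted p = 0.135). Prkcz, an atypical protein kinase C (chr4:155289001-155290000), was at 93.0% and 96.2% against 85.4% and 85.8% (9.0 points, adjusted p = 1.54e-06).

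In the other direction, Shmt2, the mitochondrial enzyme that supplies one-carbon units (chr10:127520001-127521000), was at 86.9% and 84.0% in B cells and 95.4% and 96.5% in T cells (B minus T -10.5 points, edgeR adjusted p = 3.30e-10). Urm1, a ubiquitin-like protein that thiolates tRNA (chr2:29845001-29846000), was at 83.3% and 82.3% against 92.5% and 91.6% (-9.24 points, adjusted p = 2.03e-05). T cell libraries were above B cell libraries in both.

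Tnfrsf1a, the first receptor of tumour necrosis factor (chr6:125361001-125362000), was at 83.2% and 82.5% in B cells against 93.3% and 89.6% in T cells (-8.61 points, edgeR adjusted p = 0.000127), and was not called without the female T cell library (adjusted p = 0.205). Rps6ka4, the kinase MSK2 (chr19:6830001-6831000), was at 81.7% and 84.8% against 90.3% and 90.5% (-7.21 points, adjusted p = 0.00385), and was called only when the male B cell library was the one left out. Named after its values were seen, Bcl11b, the T lineage factor, had 2 abutting exon tiles (chr12:107915001-107917000) higher in B cells, at 97.7%, 90.1%, 97.3% and 89.4% in the upper one. Both tiles were also called in the fits that left out each library in turn, which are described next.

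How firm the calls are depends on where the spread comes from. With 1 library a group, edgeR judged each tile against a spread shared by all tiles. By limma on arcsine square-root levels, 3 of the 63 were called (Abhd8, Shmt2 and the upper Bcl11b tile). Of the 1221, 33 were at an unadjusted p under 0.05 by limma and 158 by edgeR (12.9%, against 17.7% of all tiles by edgeR). Shares of all tiles were not counted for limma or for the fits that follow. Without the female T cell library 30 of the 1221 were called and without the male T cell library 28, and 16 were called whichever library was left out, 14 of them higher in B cells. These fits had no sex term and 1 cell type with a single library, which was assumed to vary like the pair of the other cell type, and they also judged tiles against a spread shared by all, so they are a check of single libraries and not of replicate spread.

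**Figure D5:**
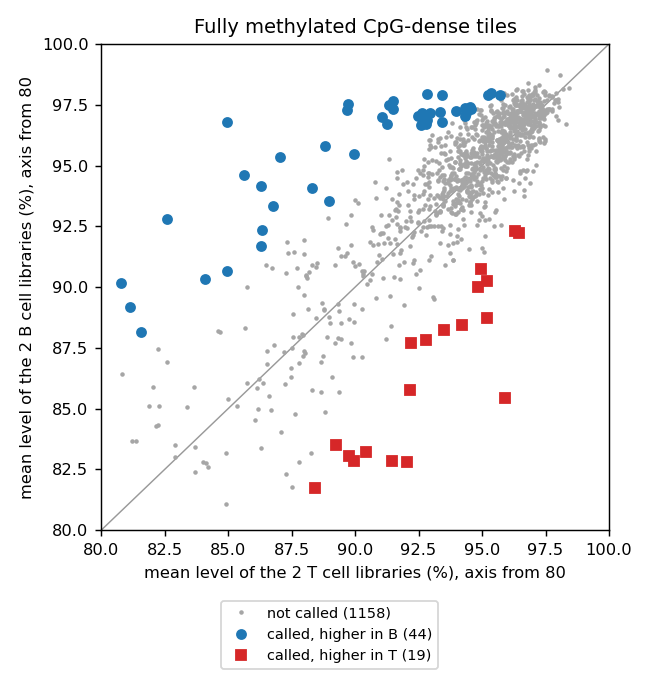
Mean level of the B cell libraries (vertical axis, %, from 80) against that of the T cell libraries (horizontal axis, %, from 80) for the 1221 fully methylated CpG-dense tiles. Blue circles are the 44 tiles called higher in B cells, red squares the 19 called higher in T cells, grey points the tiles not called, and the line marks equal levels. Most tiles sit close to the line, with the middle 50% of mean levels between 93.5% and 96.4%.

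Between females and males none of the 1221 tiles was called by edgeR, against 0.124% of all tiles in the series, which include chromosome X. Of the unmethylated dense tiles, 141 of 15451 were called (0.913%), 138 of them higher in males. With a difference of at least 5 points besides, 4 of these were called (0.0259%). The median level of the unmethylated tiles was 1.71% and 1.24% in B and T cells of females, and 2.38% and 1.32% in those of males. The male B cell library thus stood highest, and with 1 library a group an offset of that library cannot be told apart from sex. At an unadjusted p under 0.05 there were 41 of the 1221 tiles by edgeR (3.36%, against 5.15% of all tiles) and 0 by limma. Differences over the 1221 ran from -4.66 to 5.74 points, female minus male, with a median of 0.0988. With each library left out in turn no tile was called either, but those fits had no term for cell type, so that the difference between B and T cells entered their spread and they do not show stability.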

How the data were processed

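The authors trimmed and aligned the reads and called methylation per CpG: the submitters' processing notes name Trim Galore, FastQC, Bismark 0.13.1 and mm10. The deposited files give, per CpG with at least 5 reads, a methylation level as a fraction and its read number as a count. Every level equalled whole methylated reads over reads, rounded up to 3 decimals, so methylated reads were recovered. CpGs under 5 reads, as in poorly mapped repeats, are not listed, which lowers CpG numbers there. The members, gene lists and families were chosen with earlier results of these data known.

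Tile sums used the 18684786 CpGs that every file lists. Tiles with 5 or more CpGs and 20 or more reads per library were fitted with edgeR 4.0.16 (glmQLFit, R 4.3.3) with terms for library, methylation, and cell type and sex on methylation, and adjusted by Benjamini-Hochberg; limma 3.58.1 was the alternative. The common dispersion was 0.00626 and the prior degrees of freedom infinite, and the fit was tested on simulated data. The simulated differences were larger than the 20 points possible in the tiles described, and all simulated tiles had the same spread. It therefore does not check the calls among these tiles. The p-values rest on a spread shared by all tiles and estimated from these 4 libraries. They do not measure the spread between replicates of a group. Genes came from GENCODE M21, sequence from GRCm38, copies from BLAST+ 2.17.0, and promoters from RefSeq. Named tiles were those with the most CpGs per location, germ line list genes, the largest called differences and those nearest the limit. One tile that this rule names is not reported here.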

Additional observations from a re-analysis of the deposited data

Results flagged for a closer look

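Chromosome X lies outside the tiles described above, which are on chromosomes 1 to 19, although its tiles were part of the fits between cell types and sexes. It held 214 CpG-dense tiles, of which 14 were at 80% or more in every library (6.54%, 95% Wilson interval 3.94 to 10.7) and 21 at 20% or less. The share of fully methylated tiles on chromosomes 1 to 19, 6.77%, lies inside that interval. Tiles at 20% or less in every library were the larger part there (85.7%), unlike on chromosome X. Most dense tiles of X met neither limit, and each limit had to hold in the libraries of both sexes. Levels of X tiles in each sex are not given here. The X tiles are listed because no description above uses them.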

How the results depend on the processing

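The number of fully methylated dense tiles (1221) was 7149 with at least 30 CpGs, 305 with at least 50, 346 with CpGs of at least 10 reads in every file (343 of them among the 1221), and 791 without tiles that have a copy elsewhere (chosen after seeing the data); by construction each changes which tiles qualify. The share at a gene start (4.59%) was 2.57%, 6.23% and 6.57% with 30 CpGs, 50 CpGs and no copies, 10.6% with starts of all genes, 14.7% with starts of all protein-coding transcripts and 3.36% with the start inside the tile. The share in exons (48.5%) was 40%, 56.4%, 71.7% and 73.5% with 30 CpGs, 50 CpGs, 10 reads and no copies, 39.1% with all transcript starts and 52.4% with exons of all genes. The median level at 2 kb was 93.3% with 10 reads. Limits of 75% and 90%, unweighted levels and a grid shifted by 500 bases moved none of these beyond their interval or 1.5 times. Leaving out each library in turn gave 1250.0 to 1622 tiles, 4.07% to 4.64% at gene starts, 38.4% to 47.4% in exons (the lowest without male B cells) and 92.1% to 92.6% at 2 kb.

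Against 63 calls between B and T cells, limma made 3 and a minimum of 5 points left 36, all among the 63. With a library left out, 28 to 50 of the 1221 tiles were called. Of the libraries of females, leaving out the B cells gave 42 (34 of them among the 63) and the T cells 30 (25). Of those of males, the B cells gave 50 (42) and the T cells 28 (28). Fitting dense tiles only gave 49 (49), CpGs of at least 10 reads 70 (47, with 1176 tiles fitted) and tiles without copies 61. No setting called a tile between the sexes, where fits without a library have no cell type term and show no stability. No paired analysis was possible because no groups share replicate numbers. The cause of the other changes was not tested. Depth limits single tiles to intervals of a few points.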
